A study of Mus musculus with 12 samples.

Results

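Genes expressed around the central vein of the liver lobule, or driven there by Wnt signalling, were followed across 12 mouse livers: Glul, Oat, Slc1a2, Rhbg, Axin2, Lgr5, Tbx3, Lhpp, Rgn and Gulo. They were taken by symbol from the deposited count table as pericentral hepatocyte genes and Wnt targets, with cytochrome P450 genes left out. These genes and the gene lists below were chosen with earlier results of these data known. Counts of them set against all genes are therefore descriptions and not independent tests. The 10 genes are 10 of the 27304 genes in that table, and all 10 passed the filter on low counts that left 13641 genes for testing. RNA sequencing of whole liver compared Apoe-/- mice, here called controls, with Apoe-/-AhR-/- mice, here called Ahr-null, so that every mouse lacked apolipoprotein E. Each genotype had 3 males and 3 females, all on a diet labelled HFD for 12 weeks. The labels give no age at the start of the diet, no strain and no description of either null allele. Nor do they say that each library came from a separate mouse. If any did not, the p-values measure only the spread between these samples.

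The liver lobule is zoned along the path of blood from the portal tracts to the central vein. Endothelial cells at the central vein secrete Wnt ligands and R-spondin, which hold β-catenin active in the neighbouring hepatocytes. Those hepatocytes take up glutamate and ammonia and make glutamine, while periportal hepatocytes run the urea cycle. The aryl hydrocarbon receptor, encoded by Ahr, is a ligand-activated transcription factor that pairs with Arnt and drives genes such as Cyp1a2. The 10 genes fall into 3 roles. Glul, Oat, Slc1a2 and Rhbg handle glutamate, ornithine and ammonium. Axin2, Lgr5 and Tbx3 are direct Wnt target genes. Lhpp encodes a phosphatase, and Rgn and Gulo encode consecutive enzymes of ascorbate synthesis.

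Because β-catenin acts through TCF/LEF factors, the promoter windows of these genes are shown first. The RefSeq promoter table for GRCm38.p6 matched 4 of the 10 genes: Glul, Oat, Slc1a2 and Axin2. Each window held the 250 bases before a RefSeq start. Of these, 3 windows are printed 5′ to 3′ on the strand of the gene, from chr1:153899679-153899928 (plus strand) for Glul, chr7:132576399-132576648 (minus strand) for Oat and chr11:108920099-108920348 (plus strand) for Axin2. They are wholly in lower case because none of the searched motifs was found in them.
Glul: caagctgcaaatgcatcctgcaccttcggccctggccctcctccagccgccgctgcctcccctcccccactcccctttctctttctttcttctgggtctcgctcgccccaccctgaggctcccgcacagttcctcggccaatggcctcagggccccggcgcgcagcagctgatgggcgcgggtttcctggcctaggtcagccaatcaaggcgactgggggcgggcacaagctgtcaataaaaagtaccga
Oat: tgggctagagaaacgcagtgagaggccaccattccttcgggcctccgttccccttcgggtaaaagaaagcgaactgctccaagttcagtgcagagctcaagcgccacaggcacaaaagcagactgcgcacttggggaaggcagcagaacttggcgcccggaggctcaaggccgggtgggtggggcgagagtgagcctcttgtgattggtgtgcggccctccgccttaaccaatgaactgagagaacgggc
Axin2: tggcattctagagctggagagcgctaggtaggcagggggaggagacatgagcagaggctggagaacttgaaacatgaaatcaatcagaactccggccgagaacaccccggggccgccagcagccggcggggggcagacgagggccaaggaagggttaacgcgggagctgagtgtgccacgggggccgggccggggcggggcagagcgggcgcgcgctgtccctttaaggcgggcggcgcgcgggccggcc
The search covered both strands and took 3 core forms of the TCF/LEF motif, whose background was counted over 32851 promoters of the same length. The form CTTTGAA stood in 4.5% of those promoters. The form CTTTGAT stood in 3.2%, and the last form, CTTTGTT, in 5.0%. At least 1 of the forms was in 12.0%. The core bound by the Ahr and Arnt pair, GCGTG, was searched in the same way and stood in 28.2%. The Glul window also overlaps annotated exons of Mir8114 and Teddm2. The only match was in Slc1a2, at chr2:102706220-102706248 (plus strand), where capitals mark the reverse complement of CTTTGAT, 207 to 201 bases before the RefSeq start.
Slc1a2: agaagagggacATCAAAGgccccaaatgg
That start lies inside the Slc1a2 gene and its window overlaps an exon of the gene itself, so the remaining bases are not printed. A match is a description of letters and not a binding site, and the lack of one covers only these windows.

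Total counts per library ran from 9794253 to 18924880. Mitochondrially encoded genes gave 46.66% to 69.78% of them in the controls and 30.45% to 59.77% in the Ahr-null livers. The scaling factors used for the levels below ran from 0.5786 to 1.1067 in the controls and from 0.9442 to 1.5299 in the Ahr-null livers. Cyp1a2 separated the genotypes in both sexes, at 452 to 1170 CPM (reads counted for a gene, scaled to the size of its library) in the controls and 47.0 to 217 CPM in the Ahr-null livers. Ahr itself was counted at 12.4 to 25 CPM in the controls and 13.7 to 24.5 CPM in the Ahr-null livers; where its deletion lies is not given in the sources used here. Of the 12, 2 libraries carried transcripts of neurons and glia: control male 1 and Ahr-null female 1 summed to 342 and 635 CPM over 30 markers with none at 0, against 36.5 to 113 CPM in the other 10, where 6 to 9 markers were at 0. Slc1a2 is also the main glutamate transporter of astrocytes, so results are given with and without these libraries. Ahr-null female 1 also had the highest albumin level, at 55133.5 CPM against 6281 to 22047 CPM elsewhere. The part these features play in the results was not tested. In bulk liver, fewer cells of a type and less RNA per cell cannot be told apart.

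Expressed per kilobase of exon, the mean level over the 12 livers was highest for Rgn, at 168 CPM per kb, and for Glul, at 151 CPM per kb. Oat followed at 77.2, Gulo at 51.2 and Lhpp at 23.6 CPM per kb. The Wnt target Tbx3 stood at 8.48 CPM per kb and Slc1a2 at 4.69 CPM per kb. Axin2, Rhbg and Lgr5 were the lowest, at 1.17, 0.991 and 0.635 CPM per kb. The enzymes were thus the abundant transcripts of the group, and Axin2, Lgr5 and the ammonium transporter Rhbg were rare. All levels below are CPM scaled by the trimmed mean of M-values (TMM), and differences are log2 fold changes with their standard error (SE), Ahr-null minus control. Positions are those of GRCm38. Between the genotypes, Glul and Tbx3 were lower in the Ahr-null livers of both sexes without overlap, Slc1a2, Rhbg, Lhpp, Rgn and Lgr5 in 1 sex, and Oat, Axin2 and Gulo overlapped in both. Over all genes, 1.62% lay lower without overlap in both sexes, 7.34% in males and 9.86% in females.

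**Figure D1:**
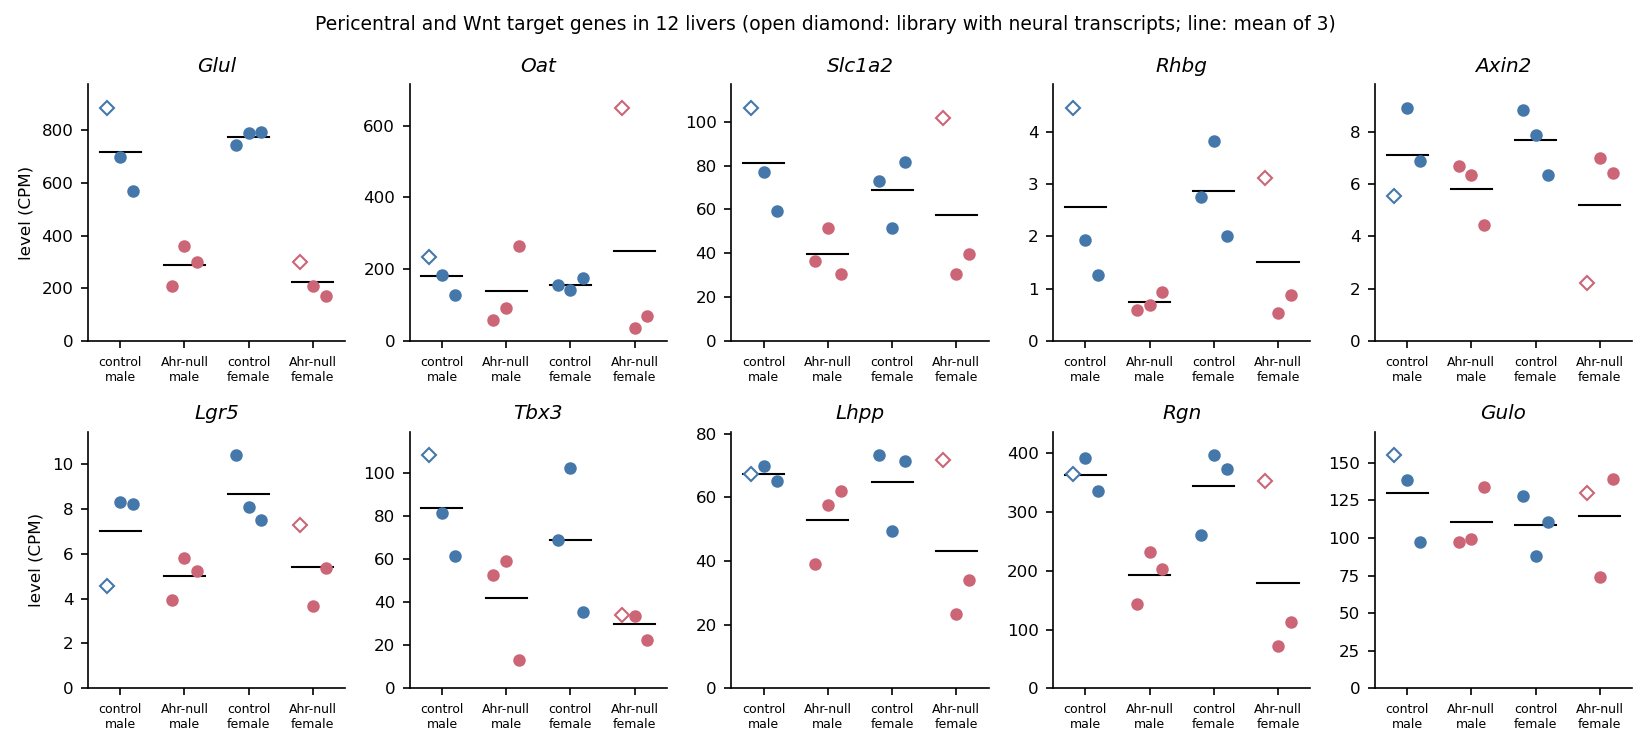
Level in CPM (vertical axis, from 0) of each of the 10 genes in the 12 livers by group, with a line at the mean of 3; open diamonds are control male 1 and Ahr-null female 1. Glul lies between 571 and 885 CPM in the controls and between 171 and 359 CPM in the Ahr-null livers, while Oat spans 36.3 to 650 CPM.

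Glul (ENSMUSG00000026473, chr1:153899944-153909723, plus strand) encodes glutamine synthetase, which joins ammonia to glutamate and marks the hepatocytes next to the central vein. Control males had 885, 698 and 571 CPM, and Ahr-null males had 209, 359 and 298 CPM. Control females had 744, 789.7 and 794 CPM, and Ahr-null females had 298, 207 and 171 CPM. Every Ahr-null liver was below every control liver, and the control females were the most alike. As for Slc1a2 below, the libraries with neural transcripts, control male 1 and Ahr-null female 1, were the highest of their groups. The group means were 718 ± 158 (SD, n = 3) in control males, 289 ± 75.4 in Ahr-null males, 776 ± 27.9 in control females and 226 ± 65.7 in Ahr-null females. Averaged over the sexes, Glul fell by 1.55 ± 0.24 (SE) on the log2 scale, a fold of 0.342, with an adjusted p of 0.0143 by edgeR's quasi-likelihood test with Benjamini-Hochberg adjustment over all genes tested. It ranked 17 among all genes by p.

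The Glul call held in 16 of 22 alternative analyses, with fold changes from -1.66 to -1.05 and adjusted p up to 0.0741. Omitting any of 6 livers ended it: edgeR's adjusted p was 0.0553 without control male 2, 0.0563 without control female 1, 0.0504 without control female 2 and 0.0557 without control female 3. It was 0.0741 without Ahr-null male 1 and 0.0539 without Ahr-null male 3. Without the libraries with neural transcripts, Glul fell by 1.57 ± 0.22 with an edgeR adjusted p of 0.00343. Over single omissions the log2 fold change stayed between -1.66 and -1.45, while the call moved across the threshold. Small parts of the Glul exons, 93 and 116 of 3323 bases, are shared with Mir8114 and Teddm2.

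Slc1a2 (ENSMUSG00000005089, chr2:102658659-102790784, plus strand) encodes the glutamate transporter GLT-1, which brings in the substrate of glutamine synthetase. In males it stood at 106, 77.1 and 59.4 CPM in controls and at 36.4, 51.7 and 30.7 CPM in Ahr-null livers. In females the controls had 73.0, 51.6 and 81.4 CPM and the Ahr-null livers 101.5, 30.7 and 39.7 CPM. The male groups did not overlap, whereas Ahr-null female 1 stood above all 3 control females. Control male 1 and Ahr-null female 1 were also the highest of their groups. The averaged log2 fold change was -0.65 ± 0.30 with an edgeR adjusted p of 0.326. Without those libraries Slc1a2 fell by 0.86 ± 0.19, with an edgeR adjusted p of 0.0319. The 2 omissions acted in opposite ways. Without Ahr-null female 1 alone the value was -0.99 (edgeR adjusted p 0.0151), and without control male 1 alone -0.53 (0.508). Slc1a3, the other astrocyte glutamate transporter, was at 7.07 CPM in control male 1 and 17.5 CPM in Ahr-null female 1, and at 0.0776 to 1.09 CPM in the other livers.

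Rhbg (ENSMUSG00000104445, chr3:88242874-88254709, minus strand) encodes an ammonium transporter of the Rh family and was scarcely counted, at 9 to 53 reads per library. Control males had 4.46, 1.94 and 1.27 CPM, and Ahr-null males had 0.592, 0.698 and 0.947 CPM. Among females the controls had 2.76, 3.82 and 2.0 CPM, and the Ahr-null livers 3.12, 0.541 and 0.884 CPM. Again the males did not overlap and Ahr-null female 1 stood among the controls. Over both sexes the log2 fold change was -1.35 ± 0.45 (edgeR adjusted p 0.177). Once control male 1 and Ahr-null female 1 were left out, Rhbg fell by 1.51 ± 0.32 (edgeR adjusted p 0.0238). Leaving out Ahr-null female 1 alone gave -1.85 (edgeR adjusted p 0.015), and leaving out control male 1 alone gave -1.02 (0.349). Of its 1937 exon bases, 1190 are shared with the read-through gene Gm38392, which is not in the count table, so the assignment of its reads is uncertain.

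Oat (ENSMUSG00000030934, chr7:132557478-132576398, minus strand) encodes ornithine aminotransferase, a mitochondrial enzyme that turns ornithine toward glutamate. The control males had 234, 183 and 127 CPM, and the Ahr-null males 58.0, 93.1 and 265 CPM. The control females had 156, 142 and 174 CPM, and the Ahr-null females 650, 36.3 and 70.0 CPM. Of the Ahr-null livers, 4 were below every control and the other two were above every control, with the highest and lowest livers 17.9-fold apart. The value over both sexes, 0.15 ± 0.59 on the log2 scale with an edgeR adjusted p of 0.944, therefore sat between opposite values. It was -0.84 ± 0.37 without the libraries with neural transcripts, with an edgeR adjusted p of 0.218, and -0.96 without Ahr-null female 1 alone. Without Ahr-null male 3 it was -0.30.

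Axin2 (ENSMUSG00000000142, chr11:108920349-108950783, plus strand) encodes a scaffold of the complex that degrades β-catenin and is induced by the pathway it restrains. Control males had 5.56, 8.91 and 6.88 CPM and Ahr-null males 6.67, 6.36 and 4.42 CPM. Control females had 8.84, 7.86 and 6.33 CPM, and Ahr-null females 2.20, 6.98 and 6.41 CPM. The groups overlapped in both sexes, and the lowest value was that of Ahr-null female 1. Its log2 fold change over both sexes was -0.42 ± 0.26 (edgeR adjusted p 0.486), against -0.31 ± 0.18 when both neural libraries were left out (edgeR adjusted p 0.353). With scaling by library size alone it was 0.06.

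Lgr5 (ENSMUSG00000020140, chr10:115450311-115587780, minus strand) encodes a receptor for R-spondins and is itself a Wnt target. Its levels in males were 4.55, 8.29 and 8.22 CPM in controls and 3.95, 5.82 and 5.25 CPM in Ahr-null livers. In females they were 10.4, 8.07 and 7.49 CPM in controls and 7.26, 3.67 and 5.36 CPM in Ahr-null livers. The females did not overlap; in males, control male 1 lay between Ahr-null livers. With all 12 livers Lgr5 stood at a log2 fold change of -0.59 ± 0.23 with an edgeR adjusted p of 0.236. Without the libraries with neural transcripts Lgr5 fell by 0.82 ± 0.19, with an edgeR adjusted p of 0.034.

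Tbx3 (ENSMUSG00000018604, chr5:119670669-119684724, plus strand) encodes a T-box transcription factor that acts mainly as a repressor. Control males had 108.5, 81.5 and 61.5 CPM, and Ahr-null males had 52.9, 59.3 and 13.4 CPM. Control females had 68.9, 102 and 35.7 CPM, and Ahr-null females had 34.1, 33.5 and 22.3 CPM. The groups did not overlap in either sex, but by narrow margins, and the controls of each sex were themselves spread. Tbx3 stood at a log2 fold change of -1.10 ± 0.36 with an edgeR adjusted p of 0.171, and it did not pass without the libraries with neural transcripts either, at -1.03 ± 0.40 and 0.177. Among the Wnt targets, then, Tbx3 had the largest difference and also the largest error, and Axin2 the smallest difference.

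Lhpp (ENSMUSG00000030946, chr7:132610638-132706420, plus strand) encodes a phosphatase that removes phosphate from histidine and lysine. It lies 34239 bases from Oat, on the opposite strand. Control males had 67.3, 69.8 and 65.0 CPM, and Ahr-null males had 39.1, 57.5 and 61.9 CPM. In females the controls had 73.3, 49.5 and 71.3 CPM and the Ahr-null livers 71.8, 23.2 and 34.0 CPM. The male groups did not overlap, and Ahr-null female 1 stood within the range of the control females. Its averaged log2 fold change was -0.47 ± 0.26 (edgeR adjusted p 0.419), against -0.75 ± 0.19 without the libraries with neural transcripts (edgeR adjusted p 0.0518). Without Ahr-null female 1 alone, Lhpp fell by 0.75 with an edgeR adjusted p of 0.0292. In Ahr-null male 3, where Oat was above every control male, Lhpp was below every control male.

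Rgn (ENSMUSG00000023070, chrX:20549787-20562089, plus strand) encodes regucalcin, the gluconolactonase that precedes Gulo in ascorbate synthesis. Levels in males were 364, 391 and 335 CPM in controls and 144, 231 and 203 CPM in Ahr-null livers. Control females had 261, 397 and 374 CPM, and Ahr-null females had 352, 72.0 and 112 CPM. The male groups did not overlap, and only Ahr-null female 1 reached the control range. With all 12 livers the log2 fold change was -0.93 ± 0.34, with an edgeR adjusted p of 0.215. Without the libraries with neural transcripts Rgn fell by 1.39 ± 0.23 with an edgeR adjusted p of 0.00628, and without Ahr-null female 1 alone it fell by 1.40 with 0.00318.

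Gulo (ENSMUSG00000034450, chr14:65986786-66009207, minus strand) encodes L-gulonolactone oxidase, the last enzyme of ascorbate synthesis. Its male levels were 155, 138 and 97.1 CPM in controls and 97.6, 99.3 and 134 CPM in Ahr-null livers. Its female levels were 128, 87.8 and 111 CPM in controls and 129.7, 74.1 and 139 CPM in Ahr-null livers. The groups overlapped in both sexes, and the highest liver was only 2.09-fold above the lowest, the narrowest range of the 10 genes. Gulo stood at -0.08 ± 0.22 over both sexes on the log2 scale (edgeR adjusted p 0.908), and at -0.04 ± 0.22 when both neural libraries were left out (edgeR adjusted p 0.938). It was 0.41 with scaling by library size alone, a scaling that also moved the median of all genes.

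Counted together, 1 of the 10 genes was called lower over both sexes, Glul, and none higher, where edgeR called 0.528% of all tested genes lower and 1.06% in either direction. At an unadjusted p under 0.05, 6 of the 10 were lower, against 7.47% of all genes. Of the 10 fold changes, 9 were negative, against 45.8% of all genes, and their median was -0.62 against 0.04 over all genes. Without control male 1 and Ahr-null female 1, 5 were called lower (Glul, Lgr5, Rgn, Rhbg and Slc1a2) against a background of 1.63%, all 10 were negative against 46.4%, and the median was -0.85 against 0.03. Without Ahr-null female 1 alone, 5 were also called lower, with Lhpp in place of Lgr5. Of the 13877 genes tested there, edgeR called 356 lower and 307 higher. Between 6 and 663 genes of all those tested were called when single livers were left out, the most without Ahr-null female 1, so these counts move with the background.

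**Figure D2:**
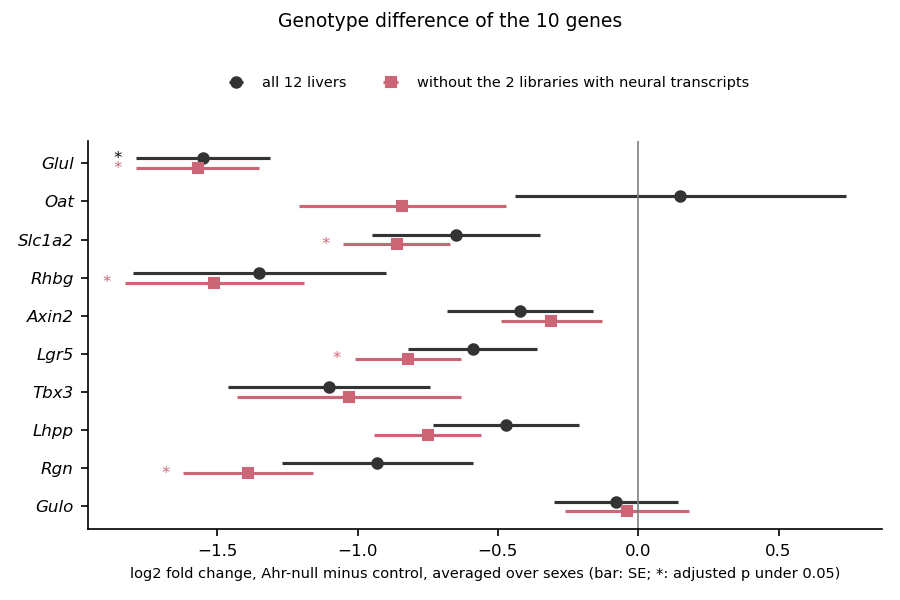
Log2 fold change (horizontal axis, Ahr-null minus control, averaged over sexes) of each of the 10 genes with its SE, from all 12 livers (circles) and without control male 1 and Ahr-null female 1 (squares); asterisks mark an edgeR adjusted p under 0.05. Glul is called in both, while Oat moves from 0.15 to -0.84 and Rgn from -0.93 to -1.39.

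**Figure D3:**
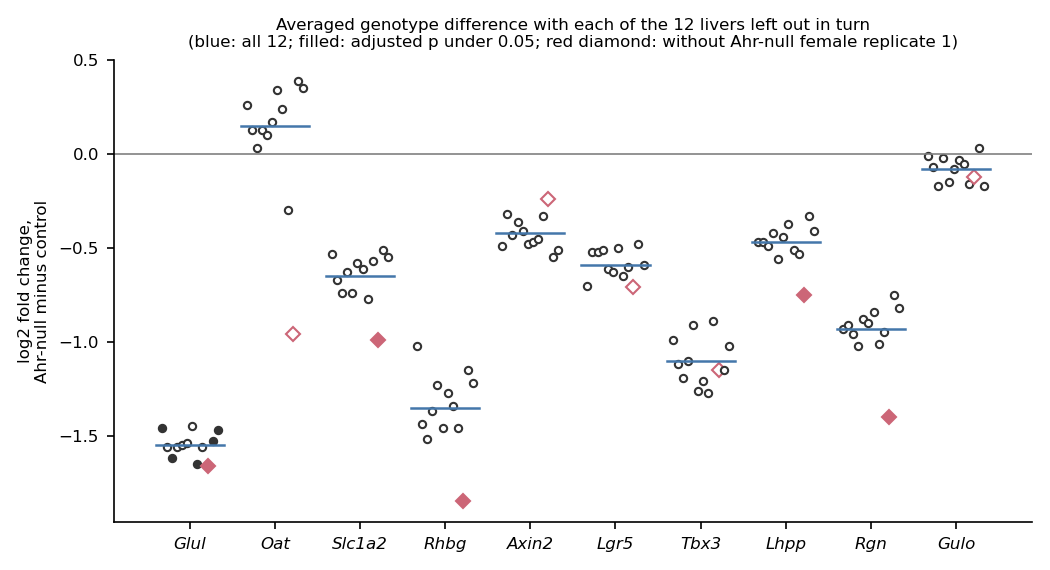
Averaged log2 fold change (vertical axis) of the 10 genes with each of the 12 livers left out in turn; blue lines are the values from all 12 livers, filled symbols have an edgeR adjusted p under 0.05, and red diamonds are without Ahr-null female 1. Glul stays between -1.66 and -1.45 but is filled in only some fits, and Oat moves most, to -0.96 without Ahr-null female 1.

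Liver by liver, the Ahr-null males had 8, 7 and 7 of the 10 genes below all 3 control males, against 28.5%, 25.9% and 32.8% of all genes. Ahr-null females 2 and 3 had 9 and 8 of the 10 below all 3 control females, against 32.3% and 31.1%. Ahr-null female 1 differed, with 4 below (41.3% of all genes) and 3 above (40.0%). Its hepatocyte marker sum was also the highest, at 84201 CPM against 24202 to 50199 CPM in the others. Most of that sum was albumin, whose high level in this liver is given above, so the sum is not a separate trait. Other sums of this liver also lay outside the range of the others. They were highest for stellate markers (1345 against 388 to 715 CPM) and cholangiocyte markers (274 against 51.6 to 143 CPM). The endothelial sum was the lowest (259 against 321 to 530 CPM), and the macrophage sum lay within the range (679 against 324 to 737 CPM).

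Within males alone, edgeR called 0 of the 10 genes, against 0.0367% of all genes, with 3 lower at an unadjusted p under 0.05 (2.84% of all genes). DESeq2 called 1, Glul, against 0.777% of all genes, and limma-voom (0.022%) and limma on the authors' values (0.0586%) called 0. All 10 fold changes were negative in males, against 50.0% of all genes, with a median of -0.71 against 0.0. The male groups did not overlap for 6 genes (Glul, Slc1a2, Rhbg, Tbx3, Lhpp and Rgn), against 7.34% of all genes lying lower in this way. Glul had the smallest p, at a log2 fold change of -1.31 ± 0.33 and an edgeR adjusted p of 0.335.

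Within females, edgeR also called 0 of the 10, against 0.161% of all genes, with 2 lower at an unadjusted p under 0.05 (6.44% of all genes). DESeq2, limma-voom and limma on the authors' values each called 1, Glul, against 3.6%, 0.257% and 0.374% of all genes. Glul stood at -1.78 ± 0.34 with an edgeR adjusted p of 0.0655, and without control male 1 and Ahr-null female 1 it fell by 2.02 ± 0.33, with 0.0129. Rgn then also passed, where it fell by 1.89 ± 0.34 with an edgeR adjusted p of 0.0224, so that 2 of the 10 were called lower against 0.944%. The groups did not overlap for Glul, Lgr5 and Tbx3, against 9.86% of all genes; without those libraries this held for 8, against 21.7%. Over both sexes at once, Glul and Tbx3 were apart and lower in each, as were 1.62% of all genes.

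No gene of the 10 was called for a difference between the sexes in its response to genotype, where edgeR called 0.00733% of all genes. These interaction terms ran from -1.07 for Oat to 0.47 for Glul, with SEs of 1.19 and 0.46. Of the 10, 0 had an unadjusted p under 0.05, where 3.45% of all genes were lower and 1.16% higher. DESeq2, limma-voom and limma on the authors' values called 0 of them. Male and female controls differed by -0.30 to 0.28 on the log2 scale (male minus female), with 0 of the 10 called against 0.352% of all genes. Male and female Ahr-null livers differed by -0.96 to 0.48, with 0 called against 0.279%. In both sex comparisons 0 of the 10 had an unadjusted p under 0.05 and the other tools called 0. At that threshold, 2.76% of all genes were lower and 3.03% higher in the control males. In the Ahr-null males 5.55% were lower and 3.13% higher. The SEs of the 10 sex differences in the Ahr-null livers ran from 0.31 for Gulo to 0.84 for Oat. Without control male 1 and Ahr-null female 1 the interaction terms ran from -0.25 to 1.41, with 0 called (0.0291% of all genes) and 1 higher at an unadjusted p under 0.05, that of Rgn (3.52%); in the Ahr-null livers the sexes then differed by -0.20 to 1.40, with 0 called (0.799%) and 3 higher in males at an unadjusted p under 0.05, Oat, Lhpp and Rgn (7.87%).

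Wnt ligands and R-spondins were read from a list of 11 genes, of which 6 were tested. Of these, 1 fell and 5 did not pass, with a list median of -0.47 against 0.04 over all genes. The one that fell was Wnt2, a ligand of the hepatic endothelium. Control males had 4.21, 2.56 and 2.36 CPM, and Ahr-null males 1.18, 0.620 and 0.908 CPM. Control females had 5.38, 3.6 and 4.25 CPM, and Ahr-null females 1.29, 0.601 and 0.884 CPM. The groups were apart in both sexes, and Wnt2 fell by 1.99 ± 0.29 with an edgeR adjusted p of 0.0118. The call held in 19 of 22 alternatives. It was lost without control female 1 (edgeR adjusted p 0.0584), without Ahr-null male 1 (0.0555) and without Ahr-null male 3 (0.0539).

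Wnt9b, the other Wnt ligand of the central vein, had 2.02, 1.24 and 1.27 CPM in control males and 1.30, 1.09 and 0.671 CPM in Ahr-null males. Control females had 1.86, 1.09 and 2.08 CPM, and Ahr-null females 2 and 3 had 0.601 and 0.442 CPM. Ahr-null female 1 had no read, which allows up to 0.275 CPM at 3 counts, for counting error only. The female groups were therefore apart and the male groups overlapped. Its log2 fold change was -1.36 ± 0.46 with an edgeR adjusted p of 0.181, while DESeq2 gave an adjusted p of 0.0242. Rspo3, the R-spondin of the central vein, had 48.5, 26.2 and 24.1 CPM in control males and 21.8, 25.3 and 9.91 CPM in Ahr-null males. Control females had 33.0, 38.8 and 33.7 CPM, and Ahr-null females 30.5, 24.1 and 21.9 CPM. Here too the females were apart and the males overlapped, and the difference was -0.63 ± 0.25 on the log2 scale (edgeR adjusted p 0.25).

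Among 17 receptors and co-receptors, 11 were tested and edgeR called 0, with 2 at an unadjusted p under 0.05, 1 called by DESeq2 and 0 by limma-voom. Over all 13641 genes, 7.47% were lower and 7.84% higher at an unadjusted p under 0.05. EdgeR called 1.06% of them in either direction, and DESeq2 called 325 higher and 339 lower. These are the background for the averaged counts of every gene list here. Of the receptors named, the largest difference was that of the Wnt receptor Fzd8, at -1.02 ± 0.30 (edgeR adjusted p 0.142). Lgr4, the R-spondin receptor related to Lgr5, stood at -0.29 ± 0.23 (edgeR adjusted p 0.609), and at 0.21 with scaling by library size alone. The 21 genes that relay the signal inside the cell, Ctnnb1 and the destruction complex among them, were all tested and none was called by edgeR, DESeq2 or limma-voom. None had an unadjusted p under 0.05, and their median was -0.10. Tcf7l2, a TCF/LEF factor, was not among them but in the list of other pericentral genes below, where edgeR did not call it. Its group means were 72.7 CPM in control males, 51.2 CPM in Ahr-null males, 97.6 CPM in control females and 50.6 CPM in Ahr-null females.

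Of 20 Wnt inhibitors and other feedback targets, 11 were tested; 1 fell, 1 rose and 9 did not pass, with a median of -0.07. Nkd1, a feedback inhibitor that binds Dishevelled, had 22.2, 14.7 and 12.7 CPM in control males and 6.39, 6.44 and 5.09 CPM in Ahr-null males. Control females had 24.3, 14.7 and 15.5 CPM, and Ahr-null females had 7.26, 7.88 and 6.24 CPM. Every Ahr-null liver was below every control, and Nkd1 fell by 1.41 ± 0.20 with an edgeR adjusted p of 0.0118. The call held in 20 of 22 alternatives and was lost without Ahr-null male 1 (edgeR adjusted p 0.0643) and without Ahr-null male 3 (0.0538). Ccnd1, which encodes cyclin D1 and has many other inputs, rose by 1.87 ± 0.40 with an edgeR adjusted p of 0.0475, a call kept in 10 of 22 alternatives. Among single omissions it held only without control male 1, Ahr-null male 2 or Ahr-null female 1, with edgeR adjusted p up to 0.182 in the rest. Notum, a secreted enzyme that inactivates Wnt ligands, stood at -0.67 ± 0.23 (edgeR adjusted p 0.188), and the Wnt-induced transcription factor Sp5 at -0.57 ± 0.27 (0.345).

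**Figure D4:**
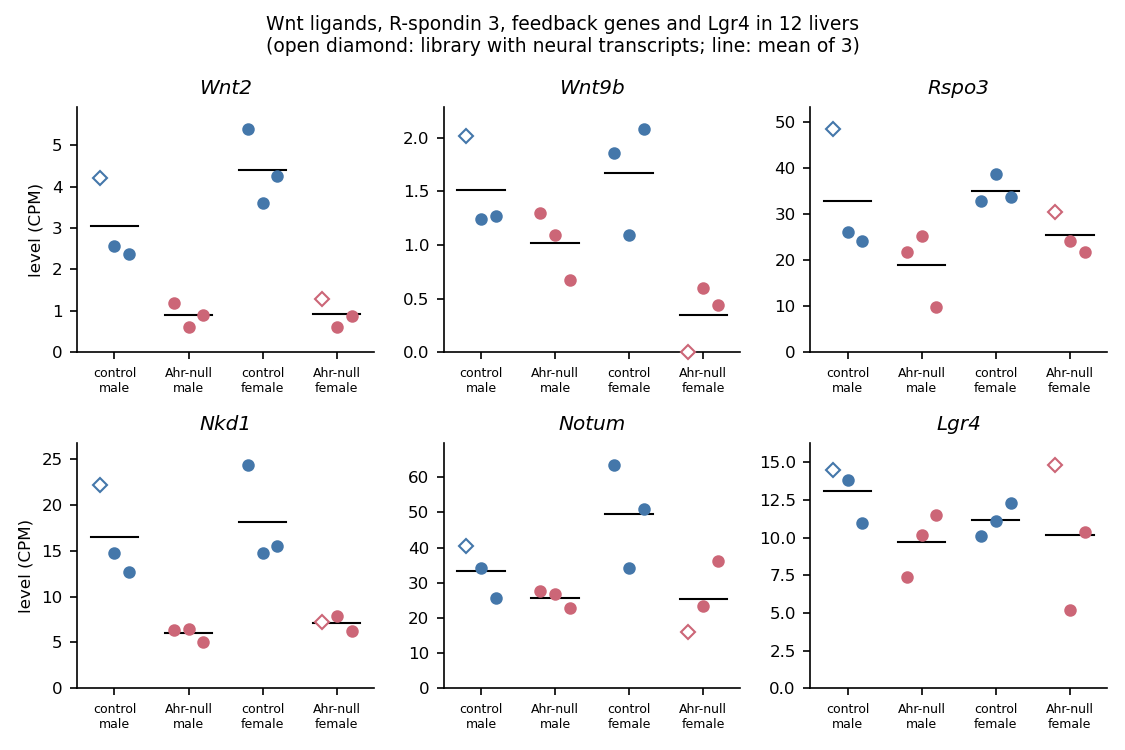
Level in CPM (vertical axis, from 0) of Wnt2, Wnt9b, Rspo3, Nkd1, Notum and Lgr4 in the 12 livers by group, with a line at the mean of 3; open diamonds are control male 1 and Ahr-null female 1. Wnt2 and Nkd1 are apart between the genotypes in both sexes, at 2.36 to 5.38 against 0.601 to 1.29 CPM for Wnt2.

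Markers of the cells that make these ligands were read beside them. Of 16 markers of central vein and sinusoidal endothelium, 15 were tested and edgeR called 0, with 2 at an unadjusted p under 0.05 and 2 called by DESeq2. Their summed level was 397 to 427 CPM in control males, 321 to 454 CPM in Ahr-null males, 399.8 to 524 CPM in control females and 259 to 530.1 CPM in Ahr-null females, with no marker at 0 in every library of a group. These ranges overlapped, and the list median was -0.08. Stab1 had the highest group means of the list, at 115.5 to 142.6 CPM, against 1.95 to 4.84 CPM for Cdh13. The sums thus follow the abundant markers and do not separate central vein from sinusoidal endothelium. Cdh13 had the smallest p of the list, at -1.17 ± 0.28 (edgeR adjusted p 0.0732).

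A list of 27 other pericentral hepatocyte genes was tested in full: 4 fell, 1 rose and 22 did not pass, with 22 of 27 fold changes negative and a median of -0.58. Over all genes, edgeR called 1.06% in either direction and 45.8% of fold changes were negative. Cyp1a2, a direct Ahr target, fell by 3.05 ± 0.36 (edgeR adjusted p 0.00663). Prodh, the proline dehydrogenase, fell by 1.34 ± 0.24 (0.0226), and Slco1b2, an organic anion uptake transporter, fell by 1.33 ± 0.28 (0.041). Cyp2c54, a cytochrome P450, fell by 2.09 ± 0.44 (0.0424). Gstm3, a glutathione transferase, rose by 2.30 ± 0.49 (0.0429). Without the libraries with neural transcripts 9 fell and none rose, where edgeR called 1.63% of all genes lower and 1.5% higher. Cyp2c37, Cyp2c50, Cyp2e1, Ces1d and Nr1i3 were then added, and Gstm3 had an edgeR adjusted p of 0.0952. The Cyp1a2 call held in all 22 alternatives. The Prodh call was lost without any 1 of the control livers, Ahr-null males 1 and 3 or Ahr-null female 2, with edgeR adjusted p up to 0.108. Those of Slco1b2 and Cyp2c54 were lost without any 1 of these or Ahr-null female 3 (up to 0.146 and 0.158). That of Gstm3 remained only without Ahr-null male 2 or Ahr-null female 3 among the single omissions (up to 0.17).

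Of 18 other genes of glutamine, ammonia and ornithine handling, 16 were tested; 1 rose, 0 fell and 15 did not pass, with a median of 0.24. The one that rose was Slc1a4, a transporter of small neutral amino acids, by 2.12 ± 0.37 (edgeR adjusted p 0.0193). It had 1.16 to 2.35 CPM in the controls and 3.02 to 16.0 CPM in the Ahr-null livers. Omitting any of control males 2 and 3, the control females or Ahr-null males 1 and 3 ended this call, with edgeR adjusted p up to 0.101. Of 8 other genes of ascorbate synthesis and recycling, all tested, edgeR called 0, with 1 at an unadjusted p under 0.05 and 0 by DESeq2. Their median was -0.18.

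Of 20 periportal genes, all tested, 1 fell, 1 rose and 18 did not pass, with a median of 0.24. Pigr, the polymeric immunoglobulin receptor, fell by 1.47 (edgeR adjusted p 0.0396), and Aldh1b1, a mitochondrial aldehyde dehydrogenase, rose by 1.54 (0.041). Among single omissions, the Pigr call held only without Ahr-null male 2 or Ahr-null female 1 (edgeR adjusted p up to 0.144), as did that of Aldh1b1 (up to 0.153). The 9 negative fold changes of the 10 pericentral and Wnt genes thus stood beside 7 of 20 in the periportal list and 45.8% of all genes. Without the libraries with neural transcripts, 9 of 20 periportal fold changes were negative, near the 46.4% of all genes, with a median of 0.12. All of the 10 genes were negative there. The difference between the lists was not tested.

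Markers of other cells were compared between genotypes in the same way, against the shares over all genes given for the receptors. Of 11 hepatocyte markers tested, edgeR called 0 (2 at an unadjusted p under 0.05, 2 by DESeq2), and of 10 cholangiocyte markers 0 (3 and 1), with a cholangiocyte median of 0.76. Of 12 markers of Kupffer cells and macrophages 1 rose, Marco, by 2.16, and of 12 of stellate cells 1 rose, Rgs5, by 1.12, with edgeR adjusted p of 0.0148 and 0.02. Both of these calls were lost without any 1 of control males 2 and 3, the control females or Ahr-null males 1 and 3, with edgeR adjusted p up to 0.0794 and 0.0978. Of 17 markers of neurons and glia tested, edgeR and DESeq2 called 0 and none had an unadjusted p under 0.05. Their medians were -1.47 in males and 1.55 in females, the 2 libraries that carried them being a control male and an Ahr-null female.

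To find genes that varied over the 12 livers as Glul did, each gene's log2 CPM was centred on its own mean and the root mean square difference from Glul was taken. For the 11088 genes whose log2 CPM averaged 1 or more, its median was 0.932. Among the 5 closest were Colec12 (0.308), Prr16 (0.327), Slco1b2 (0.385) and Nkd1 (0.389). Colec12, a scavenger receptor, had 38.3 to 82.4 CPM in the controls and 14.7 to 30.8 CPM in the Ahr-null livers, and the genotypes were apart. Of the other 9 genes, Rgn was closest at rank 22 (0.468), followed by Lhpp at rank 248, Slc1a2 at 262, Lgr5 at 496 and Tbx3 at 694. Axin2 and Gulo stood at ranks 2874 and 3041 and Oat at 7739; Rhbg was below the level required. The values share each library's scaling and depth, and a gene that differs between the genotypes as Glul does is close to it by construction, so the order is a description.

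**Figure D5:**
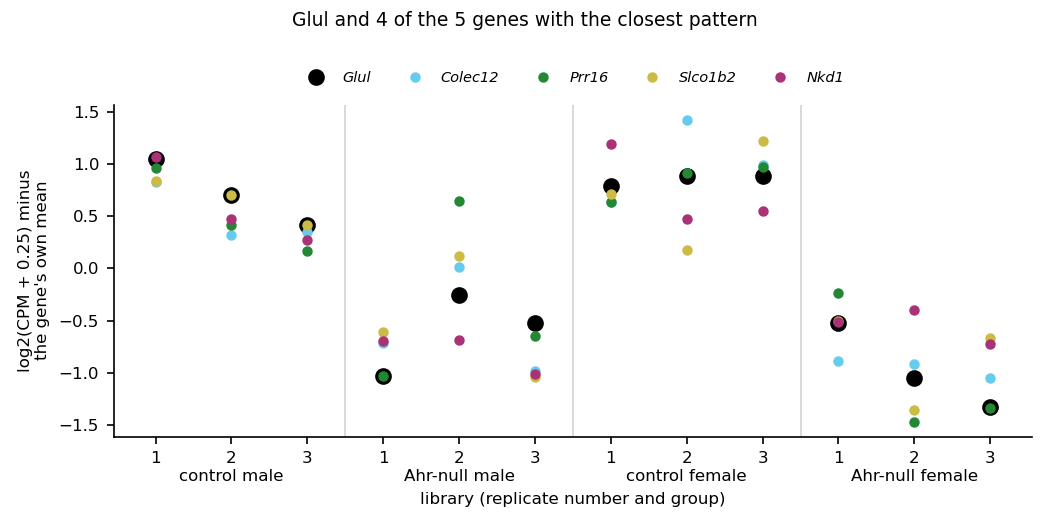
Log2(CPM + 0.25) minus the gene's own mean (vertical axis) of Glul and 4 of the 5 genes closest to it in each of the 12 livers (horizontal axis, by group and replicate). All but Prr16 lie higher in every control than in every Ahr-null liver of the same sex; Prr16 overlaps through Ahr-null male 2, at 18.8 CPM against 13.4 CPM in control male 3.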

How the data were processed

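RNA of 12 livers (4 groups of 3) was sequenced. The deposited count table holds raw counts per gene; per the submitters' processing notes, the build was GRCm38 and the tools were STAR 2.7.8, Trim Galore 0.6.5, FastQC 0.11.8 and DESeq2 1.28.1. How reads were assigned to genes, with which annotation and strand setting, is not given in the sources used here. A second deposited table, used only in 1 alternative, holds the authors' variance-stabilised values, which are near to log2. The labels' protocols give an average RNA integrity number of 7.0. Genes passing filterByExpr were fitted with edgeR 4.0.16 (R 4.3.3; TMM scaling, robust quasi-likelihood, 4 group means, 8 residual degrees of freedom), Benjamini-Hochberg adjusted over 13641 genes, and called under 0.05. Alternatives used limma 3.58.1, DESeq2 1.42.0, other scalings and filters, and omitted libraries. The fit was tested on counts simulated with a dispersion (spread beyond counting noise) of 0.05. The common dispersion of these data was 0.129, so that test did not cover their spread. Exon lengths and positions are from GENCODE vM21. The 10 genes and the gene lists were chosen with earlier results of these data known. Named genes were all 10, the called members of each list, up to 4 others by p, Wnt2, Wnt9b, Rspo3 and Lgr4, and the genes closest to Glul, of which 1 is not reported here. Replicate numbers follow accession order and pair nothing. All pairs of replicates differed by more than sampling noise (chi-square per degree of freedom 22.2 to 248).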

Additional observations from a re-analysis of the deposited data

How the results depend on the processing

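No paired analysis was possible because the labels give no shared replicate numbers. Over both sexes, the count of the 10 genes called was 1 in all settings except omitted libraries: it was 5 without control male 1 and Ahr-null female 1 together, and 0 to 5 when single livers were left out. In males it was 0 except for 1 by DESeq2. In females it was 1 by DESeq2, limma-voom and limma on the authors' values, 2 without the libraries with neural transcripts, and 0 to 2 when single livers were left out. The averaged Oat log2 fold change turned to -0.50 by limma-voom and on the authors' values and to -0.84 without the libraries with neural transcripts, and lay between -0.96 and 0.39 over single omissions. In females Oat turned to -0.34, -0.39 and -1.55 in the same settings. With mitochondrially encoded genes left out of the fit, 9 of the 10 averaged fold changes were negative, with a median of -0.61 against -0.62. Library size alone moved the median of all genes by 0.49, with 986 genes called higher and 67 lower against 72 and 72; 7 of the 10 genes then had negative fold changes and 9 lay below the median of all genes. Under it, averaged Axin2 was 0.06, Gulo 0.41 and Lgr4 0.21, male Oat 0.21, Axin2 0.15, Lhpp 0.11 and Gulo 0.29, and female Slc1a2 0.21. Gulo in females was -0.01 without the libraries with neural transcripts. Over single omissions, Gulo lay between -0.17 and 0.03 averaged and between -0.11 and 0.30 in females, male Oat between -1.27 and 0.01, female Oat between -1.55 and 1.17, and female Slc1a2 between -0.95 and 0.02. The cause of these changes was not tested. Of 660 interaction and sex values (30 results in 22 alternatives), 64 changed sign and 0 were called. Depth limits Rhbg most, at 9 to 53 reads per library. Over all genes, the averaged comparison called 144 by edgeR, 664 by DESeq2 and 432 without the libraries with neural transcripts.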
